A study of Mus musculus with 9 samples.

Results

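A list of genes for proteins of the lysosome was followed in neurospheres of adult olfactory bulb stem cells (aOBSCs) that received FGF-2 and EGF (FGF-2/EGF) at 3 different intervals. The list held 40 mouse symbols, and a gene was measured by every probe set to which the array's annotation gives that single symbol. In this way 39 of the 40 genes were measured, by 82 of the 45037 probe sets of the arrays, which name 18193 genes in all, and Cd63 was not analysed here. For each gene the values given are those of its brightest probe set, that with the highest average of all 9 arrays, unless another is named.

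The lysosome is an acidic compartment in which proteins, sugar chains and lipids delivered by endocytosis and autophagy are taken apart. Its limiting membrane is coated by heavily glycosylated proteins such as LAMP1 and LAMP2, while its soluble hydrolases carry a mannose 6-phosphate tag that routes them from the Golgi. Many genes for lysosomal proteins share an E-box element, CACGTG, in their promoters, which is bound by TFEB and its relatives, and inherited loss of single hydrolases causes storage diseases that often strike the brain. CD68 is a glycosylated protein of late endosomes and lysosomes whose mRNA is abundant in macrophages and microglia, where it serves as a marker.

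The neurospheres came from the olfactory bulb of adult mice, CD1 or C57Bl/6 as the study names its strains, with no transgene or deletion stated. They were grown with each factor at 20 ng/ml, added every 4 days (C4), every 2 days (C2) or daily (Ctr), with 3 arrays per condition that the submitters call biological replicates. All cultures were first expanded with daily addition, then passaged 2 more times in their own condition and collected after 7 days without a change of medium, when C4 cells had been 3 days and C2 cells 1 day without added factors. The study names mice of 7 and 15 months for the arrays but not which mouse gave which array, so the p-values measure the spread between these arrays only. Values are log2 GCRMA intensities, so that a difference of 1 is a doubling of signal, and levels of different probe sets are not comparable with each other as amounts of mRNA.

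The arrays were alike in scale, with 18205 to 18357 probe sets above a value of 4 in C4, 18227 to 18285 in C2 and 18216 to 18239 in Ctr, and with the lowest possible value, 2.27, on 34.8% to 35.8% of probe sets. Sox2 (12.88 to 13.09), Olig2 (12.04 to 12.20) and Slc1a3 (11.98 to 12.43), genes of neural stem and progenitor cells, were bright on every array, whereas Prom1 was at 2.27 on all 9. All 20 markers of microglia and macrophages that were examined, among them Csf1r, Trem2, Tyrobp and C1qa, stayed below 4 on every array, the highest value being 3.87. All markers of endothelial cells and of pericytes and fibroblasts were also below 4.

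Among the 39 lysosomal genes, 36 had values above 4 on all arrays. Ctsh, Ctss and Ctsz, the genes of cathepsins H, S and Z, were below 4 on every array and gave no usable comparison. In C4 compared with Ctr, 5 genes rose (Gm2a, Ppt1, Npc1, Ctsb and Laptm4a) and 5 fell (Cd68, Naglu, Glb1, Ctsa and Arsb), by limma over all 45037 probe sets at an adjusted p under 0.05. These 10 were 25.6% of the 39, where the same test called 9.20% of the 18193 genes in either direction (5.65% higher and 3.55% lower). Among the 36 genes above 4 they were 27.8%, beside 17.5% of the 9347 genes whose probe set averaged over 4. The median difference of the 36 was -0.024, beside 0.045 over those 9347 genes. With each array centred on its median, the split was 3 members higher and 9 lower, and Ctsb and Laptm4a were no longer called. The 3 comparisons share arrays, so each is given by its own values.

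Among the members, Cd68 moved most in C4 against Ctr. It had values of 5.00, 5.04 and 5.25 on the C4 arrays, 7.70, 7.68 and 7.75 on the C2 arrays, and 7.66, 7.98 and 7.83 on the Ctr arrays. Every C4 array lay at least 2.41 below every other array, while the C2 and Ctr arrays overlapped. In means, Cd68 had 5.10 ± 0.13 in C4, 7.71 ± 0.037 in C2 and 7.82 ± 0.16 in Ctr (SD, n = 3 each). The signal was thus 6.61-fold lower in C4 than in Ctr, a log2 difference of -2.72 (SE 0.096, 95% interval -2.96 to -2.49, limma adjusted p = 8.43e-05), and 6.10-fold lower in C4 than in C2 (-2.61, limma adjusted p = 5.35e-05). Between C2 and Ctr the difference was -0.12, with an interval of -0.35 to 0.12 (limma adjusted p = 0.748). In C4 against Ctr this was the lowest difference of all 45037 probe sets, of which 132 had a difference of -1 or less. RNA of whole cultures was measured, so fewer cells with the transcript and less transcript per cell cannot be told apart.

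**Figure D1:**
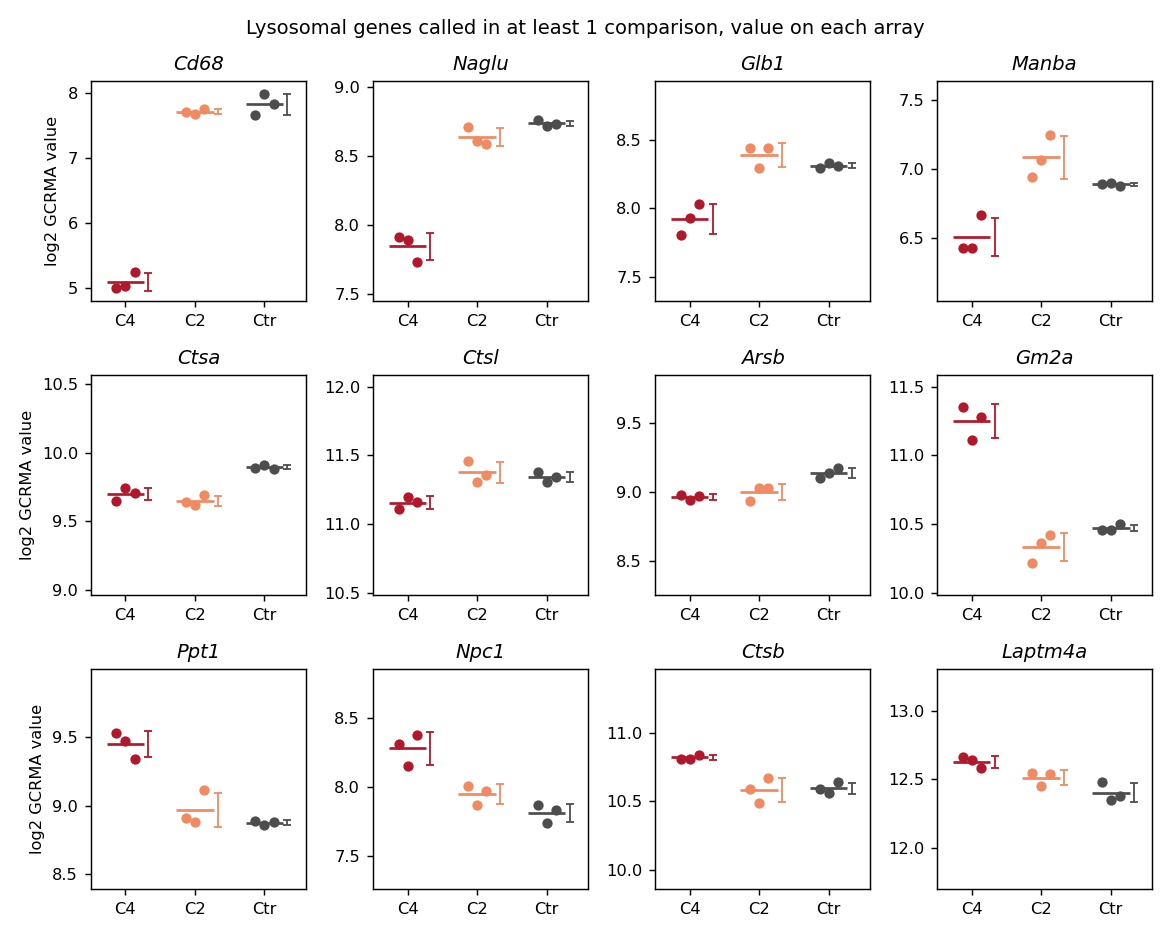
Log2 GCRMA value (y axis) on each of the 3 arrays (points) in C4, C2 and Ctr (x axis) for the 12 lysosomal genes called in at least 1 comparison; lines are group means and the brackets beside them are 1 SD. The Cd68 panel has a wider y axis than the others, and its C4 points lie between 5.00 and 5.25 whereas all C2 and Ctr points lie between 7.66 and 7.98.

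Since CD68 is best known from macrophages, the 20 markers of microglia and macrophages were set beside it. None of the 20 was called in any comparison, and their summed log2 value was 49.5 to 50.3 on the C4 arrays, 48.8 to 49.2 on the C2 arrays and 49.8 to 50.0 on the Ctr arrays. These markers were at or near the lowest values of the array in conditions where Cd68 was between 7.66 and 7.98. GCRMA presses weak signals together near the lowest value, and which cells gave the Cd68 signal was not tested. Markers of other cell types also differed between C4 and Ctr, in a test that called 17.5% of the genes averaging over 4. Of 7 astrocyte markers, 4 rose in C4 (Aldh1l1, S100b, Aqp4 and Aldoc), with a summed value of 62.3 to 63.2 in C4, 58.2 to 59.3 in C2 and 58.7 to 59.0 in Ctr. Of 8 measured oligodendrocyte lineage markers, 3 rose in C4 (Gpr17, Pdgfra and Cspg4), with sums of 31.3 to 32.8 in C4, 25.0 to 26.1 in C2 and 27.7 to 28.0 in Ctr, while Mbp and Mog, the genes of myelin proteins, were at the bottom of the scale. Of 12 neural stem and progenitor cell markers, 5 rose in C4 (Pax6, Fabp7, Egfr, Nr2e1 and Hes5) and Vim fell, with sums of 119.9 to 120.6 in C4, 117.0 to 117.7 in C2 and 117.2 to 117.6 in Ctr. Gad1, 1 of 9 markers of neuroblasts and neurons, fell. The part of these changes in the lysosomal results was not tested.

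The gene of CD68 lies on chromosome 11 from 69664213 to 69666170 of GRCm38.p6 on the minus strand (Entrez gene 12514), in a dense row of genes. Eif4a1, a helicase gene of translation initiation, ends 0.766 kb upstream, and Mpdu1, a gene of dolichol sugar use, begins 1.56 kb downstream. Eif4a1 had 13.15, 13.09 and 13.03 in C4, 13.29, 13.24 and 13.35 in C2, and 13.22, 13.30 and 13.41 in Ctr, a C4 minus Ctr difference of -0.22 (limma adjusted p = 0.0883). Mpdu1 differed by -0.012 (limma adjusted p = 1). Both genes next to Cd68 missed the threshold in C4 against Ctr. The interval of Eif4a1 was -0.36 to -0.08, with every C4 array below every C2 and Ctr array, and that of Mpdu1 was -0.11 to 0.09. Whether the fall of Cd68 is shared by its region was not tested. Of the 8 measured genes within 58.2 kb, 1 (12.5%) was called in C4 against Ctr, beside 9.20% of all genes and 17.5% of those averaging over 4. This was Atp1b2, a sodium pump subunit gene, which rose by 0.42 (limma adjusted p = 0.0187). The remaining 5 (Senp3, Sox15, Fxr2, Sat2 and Shbg) had differences of -0.061 to 0.44. Shbg lay at 2.27 to 2.33 and gave no usable comparison.

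**Figure D2:**
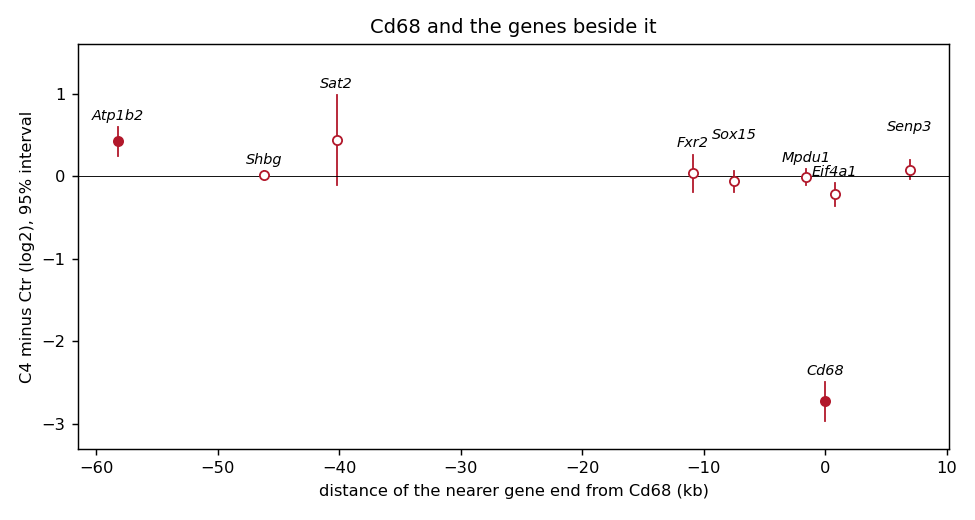
C4 minus Ctr difference on the log2 scale (y axis; vertical lines are 95% confidence intervals) for Cd68 and the 8 measured genes beside it, placed by the distance in kb of their nearer end from Cd68 (x axis; positive values are upstream of Cd68). Filled points passed an adjusted p of 0.05; Cd68 lies at -2.72 and all its neighbours between -0.22 and 0.44.

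The promoter window of Cd68 is shown because it differs from those of several hydrolases in the elements that it holds. The window runs from 250 bases before to 50 bases after the start site, on the minus strand at chr11:69666121-69666420 (RefSeq, GRCm38.p6). Capitals mark TGAGTCA, the core element of AP-1 factors, which was searched on both strands and was chosen after this window was read.
Cd68: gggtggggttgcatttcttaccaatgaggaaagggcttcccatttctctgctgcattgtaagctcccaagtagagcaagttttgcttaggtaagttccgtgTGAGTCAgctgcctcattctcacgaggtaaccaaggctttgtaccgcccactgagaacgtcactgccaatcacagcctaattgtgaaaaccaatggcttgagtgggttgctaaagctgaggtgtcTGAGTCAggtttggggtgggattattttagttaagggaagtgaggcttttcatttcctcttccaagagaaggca
The element begins at -149 and at -24 from the start site. Of 34 measured members with a promoter window, 5 (14.7%) held it at least once (Cd68, Glb1, Laptm4a, Neu1 and Psap), as did 5.95% of 27025 genes, and Cd68 was the 1 member with at least 2 copies, as were found in 0.255% of genes. A match of letters is a description of the sequence and not evidence of binding.

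The E-box CACGTG, which reads the same on both strands, was absent from the Cd68 window and present in those of 13 of the 34 members (38.2%), compared with 8.09% of 27025 genes. The stretches below are shown for the 4 called genes that hold it and for Lamp1, which holds it 4 times; each gives the first copy in capitals with up to 9 bases on either side.
Naglu: ccttcaggtCACGTGgcccgaggt
Glb1: cttctgagtCACGTGgcctacaga
Ctsa: gcaaactgtCACGTGatgcagatg
Ctsl: gttagaagcCACGTGctgatctaa
Lamp1: gcaagatatCACGTGgtccagcgc
They lie at chr11:101070012-101070035, chr9:114401021-114401044, chr2:164833752-164833775, chr13:64370742-64370765 and chr8:13159091-13159114, in the order printed, with Ctsl on the minus strand and the others on the plus strand. In Glb1 the E-box shares 2 bases with a copy of TGAGTCA. The 13 members with the E-box had a median C4 minus Ctr difference of -0.14, ranging from -0.89 to 0.19, and 10 of the 13 differences were negative. The 19 members above 4 without it had a median of 0.045 and ranged from -2.72 to 0.77. Of the 5 genes that rose in C4, Npc1 and Ctsb had no window to search, and Gm2a, Ppt1 and Laptm4a did not hold the E-box. Among the 5 that fell, 3 held it (Naglu, Glb1 and Ctsa). Whether the E-box has a part in these differences was not tested, and a match of letters is not evidence of binding. A gene counted as holding the E-box if any of its windows did. Ctsa, Cln3 and Lgmn have more than 1 window and hold it only in that of a start site inside the gene.

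**Figure D3:**
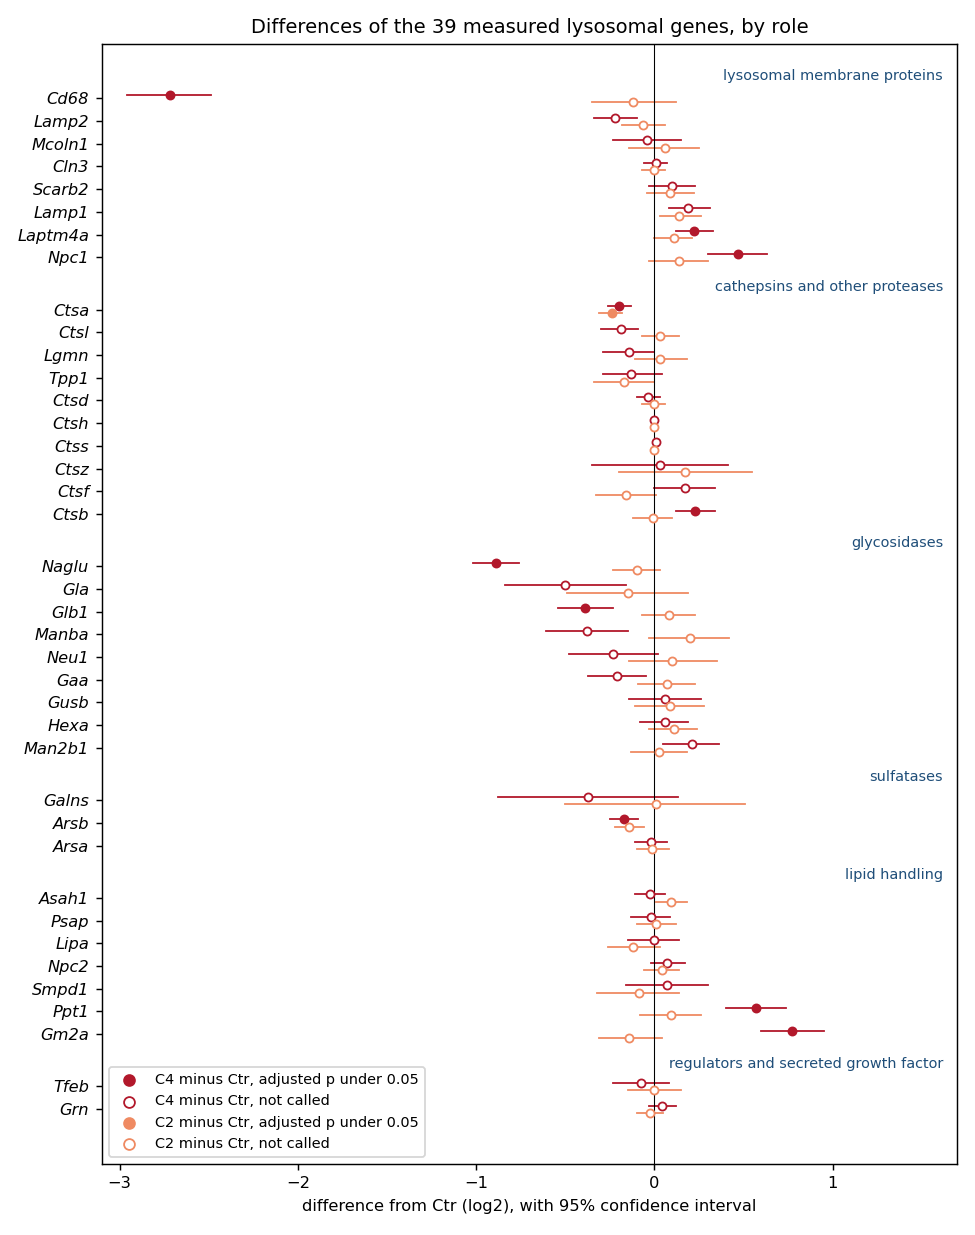
Difference from Ctr on the log2 scale (x axis; lines are 95% confidence intervals) of the 39 measured lysosomal genes (y axis) in C4 and in C2, grouped by role. Filled points passed an adjusted p of 0.05; apart from Cd68 at -2.72, the C4 differences run from -0.89 (Naglu) to 0.77 (Gm2a), and in C2 the 1 filled point is Ctsa at -0.24.

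Of the 8 measured membrane proteins of the lysosome, 3 (37.5%) were called in C4 against Ctr, beside 17.5% of the genes averaging over 4. Cd68 fell, whereas Npc1 and Laptm4a rose by less than 1 on the log2 scale. Npc1, the membrane protein that exports cholesterol, had 8.31, 8.15 and 8.38 in C4, 8.01, 7.87 and 7.97 in C2, and 7.87, 7.74 and 7.83 in Ctr. The C4 arrays lay above all others, a rise over Ctr of 0.47 (SE 0.069, limma adjusted p = 0.0112) and over C2 of 0.33 (limma adjusted p = 0.0456). Laptm4a, a small protein spanning the membrane of late endosomes and lysosomes, had 12.66, 12.64 and 12.58 in C4 and 12.48, 12.35 and 12.38 in Ctr, a rise of 0.22 (limma adjusted p = 0.0359). Lamp1, the most used marker of lysosomal membranes, had 11.27, 11.33 and 11.44 in C4 and 11.18, 11.10 and 11.19 in Ctr, and its difference of 0.19 missed the threshold (interval 0.08 to 0.31, limma adjusted p = 0.0743). Scarb2, Cln3 and Mcoln1 had differences of 0.10, 0.0074 and -0.039.

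Lamp2 was a case in which the probe sets disagreed, and it was singled out after its values were seen. Its probe set of highest mean had 12.05, 12.05 and 12.19 in C4, 12.31, 12.23 and 12.23 in C2, and 12.25, 12.35 and 12.34 in Ctr, a difference of -0.22 that did not pass (limma adjusted p = 0.059). A further probe set fell by 0.28 (limma adjusted p = 0.032), and another by 0.36 without passing (limma adjusted p = 0.0735). The last had 10.93, 10.87 and 10.85 in C4 and 10.38, 10.44 and 10.49 in Ctr, a rise of 0.45 (limma adjusted p = 0.00345). With its probe sets averaged, Lamp2 was called lower in C4 against Ctr. Lamp2 makes several mRNAs with alternative last exons, but which of them each probe set reads was not known here.

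The glycosidases, which remove sugars one by one from glycoproteins, glycolipids and glycosaminoglycans, included the second largest fall among the members. Naglu, the alpha-N-acetylglucosaminidase of heparan sulfate breakdown, had 7.91, 7.89 and 7.73 in C4, 8.71, 8.61 and 8.59 in C2, and 8.76, 8.72 and 8.73 in Ctr. The C4 arrays lay below all others, with a signal 1.85-fold lower than in Ctr (-0.89, SE 0.054, limma adjusted p = 4.25e-04) and 1.73-fold lower than in C2 (-0.79, limma adjusted p = 5.92e-04). Between C2 and Ctr the difference was -0.10 (interval -0.23 to 0.03).

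Glb1, the beta-galactosidase that acts on GM1 ganglioside, had 7.81, 7.93 and 8.03 in C4, 8.44, 8.29 and 8.44 in C2, and 8.29, 8.33 and 8.31 in Ctr. It fell by 0.39 in C4 compared with Ctr (SE 0.064, limma adjusted p = 0.0175) and by 0.47 compared with C2 (limma adjusted p = 0.00957). Manba, the beta-mannosidase, had 6.43, 6.43 and 6.67 in C4, 6.94, 7.07 and 7.25 in C2, and 6.89, 6.90 and 6.88 in Ctr. Its C4 arrays lay below all others, but only the difference from C2 passed (-0.58, limma adjusted p = 0.0184), that from Ctr being -0.38 (limma adjusted p = 0.0749). Of the 9 glycosidases 2 fell and 0 rose in C4 against Ctr, 22.2% called beside 17.5% of the genes averaging over 4. At an unadjusted p under 0.05 in limma there were 6 (66.7%), beside 40.1% of those genes. In 6 of the 9 glycosidases (Naglu, Gla, Glb1, Manba, Neu1 and Gaa), all C4 arrays lay below all Ctr arrays. Over the 9347 genes averaging over 4, C4 lay wholly below Ctr in 16.2%. The median of the 9 was -0.23 in C4 against Ctr and 0.080 in C2 against Ctr.

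Beta-galactosidase works in a complex with the sialidase NEU1 and with cathepsin A, the protective protein encoded by Ctsa. Ctsa had 9.65, 9.74 and 9.71 in C4, 9.64, 9.62 and 9.69 in C2, and 9.89, 9.91 and 9.88 in Ctr. The Ctr arrays lay above both other conditions, and Ctsa was the 1 member called in C2 against Ctr (-0.24, limma adjusted p = 0.0138), where 2.52% of the 18193 genes were called. It fell by 0.20 in C4 compared with Ctr (SE 0.028, limma adjusted p = 0.0098), and C4 and C2 differed by 0.049 (interval -0.02 to 0.12). Neu1 had 6.38, 6.66 and 6.71 in C4 and 6.90, 6.79 and 6.76 in Ctr, and its difference of -0.23 did not pass (interval -0.48 to 0.02, limma adjusted p = 0.356).

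The other proteases were mostly level. Ctsb, the gene of the cysteine protease cathepsin B, had 10.81, 10.81 and 10.84 in C4, 10.59, 10.49 and 10.67 in C2, and 10.59, 10.56 and 10.64 in Ctr. It rose by 0.23 in C4 compared with Ctr (limma adjusted p = 0.035) and by 0.24 compared with C2 (limma adjusted p = 0.0336). The second bright probe set of Ctsb rose by 0.23 as well (limma adjusted p = 0.0186), whereas its 3 dimmer probe sets were not called, and with the probe sets of the gene averaged neither difference passed. Ctsl, the related cathepsin L, went the other way, with 11.11, 11.20 and 11.16 in C4, 11.46, 11.31 and 11.36 in C2, and 11.38, 11.31 and 11.34 in Ctr. It was lower in C4 than in C2 by 0.23 (-0.23, limma adjusted p = 0.0348), and the difference from Ctr was -0.19 (limma adjusted p = 0.0552). Ctsd, Ctsf, Lgmn and Tpp1 were not called, with C4 minus Ctr differences of -0.14 to 0.17. Arsb, the sulfatase of dermatan and chondroitin sulfate, had 8.98, 8.94 and 8.97 in C4, 8.93, 9.03 and 9.03 in C2, and 9.10, 9.14 and 9.17 in Ctr, a fall of 0.17 in C4 (limma adjusted p = 0.0287), and the sulfatases Arsa and Galns were not called.

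Genes of lipid handling held the largest rises. Gm2a encodes the activator protein that lifts GM2 ganglioside out of the membrane for hexosaminidase A. It had 11.35, 11.11 and 11.28 in C4, 10.22, 10.36 and 10.42 in C2, and 10.46, 10.46 and 10.50 in Ctr, with all C4 arrays above all others. The signal was 1.71-fold higher in C4 than in Ctr (0.77, SE 0.073, limma adjusted p = 0.00212) and 1.88-fold higher than in C2 (0.91, limma adjusted p = 0.00113), and a further probe set rose by 0.59 over Ctr (limma adjusted p = 0.0307). Hexa, the alpha subunit of the hexosaminidase that Gm2a serves, had a difference of 0.059 (interval -0.08 to 0.19).

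Ppt1, the thioesterase that removes palmitate from proteins and whose loss causes an infantile form of neuronal ceroid lipofuscinosis, had 9.53, 9.47 and 9.34 in C4, 8.91, 8.88 and 9.11 in C2, and 8.89, 8.86 and 8.88 in Ctr. It rose by 0.57 in C4 compared with Ctr (SE 0.071, limma adjusted p = 0.00576) and by 0.48 compared with C2 (limma adjusted p = 0.0125), and its second bright probe set rose by 0.75 (limma adjusted p = 0.00419). Npc2, the soluble partner that hands cholesterol to NPC1, had a difference of 0.072 (interval -0.02 to 0.17), and Psap, the precursor of the saposins, one of -0.021 (interval -0.13 to 0.09). Asah1, Smpd1 and Lipa lay between -0.027 and 0.073. Thus 2 of 7 genes of this group rose and 0 fell in C4, and 0 were called in C2. The 2 were 28.6% of the group, beside 10.7% of the genes averaging over 4 that were called higher. A group of 7 genes is too small for this share to describe lipid handling.

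The members that were called in no comparison numbered 24 of the 36 above 4. Their C4 minus Ctr differences ran from -0.50 (Gla) to 0.21 (Man2b1) with a median of -0.020, and the 4 with the highest probe set values were Psap, Lamp2, Npc2 and Lamp1. They include Tfeb, the gene of the transcription factor that reads the E-box, which was dim at 4.06 to 4.29 and whose difference of -0.077 missed the threshold, and Grn, the gene of the secreted growth factor progranulin, which was also not called (0.045). Over all members, the C2 minus Ctr differences stayed between -0.24 and 0.20, with 1 of 39 called and 4 (10.3%) at an unadjusted p under 0.05 in limma, beside 14.1% of the 18193 genes. Among the 36 above 4, these 4 were 11.1%, beside 26.4% of the 9347 genes averaging over 4. In C4 against C2, 4 members were called higher and 5 lower, 23.1% of the 39, where 7.78% of the 18193 genes were called. Among the 36 above 4 the share was 25%, beside 14.8% of the 9347 genes. The members called in C4 against both Ctr and C2 numbered 7, namely Cd68, Naglu, Glb1, Gm2a, Ppt1, Npc1 and Ctsb. Both comparisons use the same C4 arrays, and the share of all genes called in both was not counted.

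Several calls were lost when single arrays were left out. Cd68, Naglu, Gm2a, Ppt1, Npc1 and Ctsa kept their calls in C4 against Ctr in all 9 fits that each left out 1 array, with adjusted p of at most 0.0453 by limma. Glb1 lost its call in 4 of the 9 (without C4 replicate 2 or any of the 3 Ctr replicates, differences of -0.44 to -0.33 over the 9, highest limma adjusted p = 0.0707). Arsb lost it in 6 of the 9, without any 1 of the C4 or the Ctr replicates (differences of -0.19 to -0.16, highest limma adjusted p = 0.0961). Ctsb lost it in 7 (without any C4 or Ctr replicate or C2 replicate 1, differences of 0.21 to 0.25, highest limma adjusted p = 0.122), and Laptm4a in 7 (without any C4 replicate, C2 replicate 1 or 3, or Ctr replicate 2 or 3, differences of 0.20 to 0.26, highest limma adjusted p = 0.116). Against C2, Npc1 and Ctsl each lost the call in 8 of 9 fits, Ctsb in 7, Manba in 3 (without C4 replicate 1 or 2 or C2 replicate 2) and Ppt1 in 1 (without C2 replicate 1), and the C2 against Ctr call of Ctsa was lost without C2 replicate 1 or 2 or Ctr replicate 2 (highest limma adjusted p = 0.0555).

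The other genes of the lysosome were examined by lists. Among 31 measured genes of other hydrolases 4 rose and 2 fell in C4 compared with Ctr, 19.4% of the list beside 9.20% of all genes and 17.5% of those averaging over 4. Scpep1, a serine carboxypeptidase gene, had 11.30, 11.00 and 11.15 in C4, 12.02, 11.91 and 11.64 in C2, and 12.27, 12.23 and 12.07 in Ctr, a fall of 1.04 (limma adjusted p = 0.00417), and Sumf1, which activates all sulfatases, fell by 0.42 (limma adjusted p = 0.0154). Smpdl3a, a phosphodiesterase gene related to acid sphingomyelinase, rose by 0.67 (limma adjusted p = 0.00347), Fuca1 by 0.24 and Galc by 0.11. Among 33 other membrane proteins and transporters, 3 (9.09%) were called: Laptm4b fell by 0.79 (limma adjusted p = 0.00632), Cd164 fell by 0.39 and Spns1, a lysosomal lipid transporter gene, rose by 0.54 (limma adjusted p = 0.0245). Hence Laptm4a and Laptm4b, which are paralogues, were called in opposite directions in C4.

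Of 23 measured subunits of the V-ATPase, the pump that acidifies lysosomes, 2 rose (Atp6v0e by 0.39 and Atp6v1g2, which was near the bottom of the scale at 3.90 to 4.18 in C4, by 0.88) and 1 fell (Atp6v1c1 by 0.30). These were 13.0% of the 23, whose median was 0. Of 29 genes for tagging and delivery of hydrolases, 3 rose and 1 fell in C4, 13.8% of the list. Both shares lay between the 9.20% of all genes and the 17.5% of genes averaging over 4. The fall was Igf2r, the large mannose 6-phosphate receptor that carries hydrolases to the lysosome, with 7.14, 7.27 and 7.16 in C4, 7.71, 7.79 and 7.71 in C2, and 8.04, 7.96 and 7.96 in Ctr. Its 3 conditions did not overlap, and the difference was -0.80 (SE 0.044, limma adjusted p = 3.02e-04) in C4 and -0.25 (limma adjusted p = 0.0514) in C2. Clta, a clathrin light chain gene, Ap3s1, an adaptor subunit gene, and Vps41, a tethering factor gene, rose by 0.35, 0.38 and 0.24.

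Genes that report from the lysosome surface to growth control and TFEB were called in either direction, with 2 of 23 higher and 3 lower in C4 (21.7%, near the 17.5% of genes averaging over 4). Rragc, a Rag GTPase gene, rose by 0.33 (limma adjusted p = 8.49e-04) and Mlst8, a subunit gene of mTOR complexes, by 0.87, while Lamtor5, a Ragulator subunit gene, fell by 0.48 (limma adjusted p = 0.00287), Flcn by 0.39 and its partner Fnip1 by 0.49. Among 39 autophagy genes 4 rose and 3 fell, 17.9% of the list and again near that background. Gabarap, a gene of the ubiquitin-like proteins that coat autophagosomes, had 11.95, 12.04 and 11.95 in C4, 11.65, 11.70 and 11.74 in C2, and 11.57, 11.49 and 11.47 in Ctr, a rise of 0.47 (limma adjusted p = 0.0012), and Ulk2 rose by 0.40 and Atg3 by 0.077. Vmp1, a membrane protein gene of autophagosome formation, fell by 0.67 (limma adjusted p = 6.88e-04), Bnip3 by 0.40 and Becn1 by 0.45. The medians of these 2 lists, 0.073 and 0.11, stood beside 0.045 for all genes averaging over 4.

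**Figure D4:**
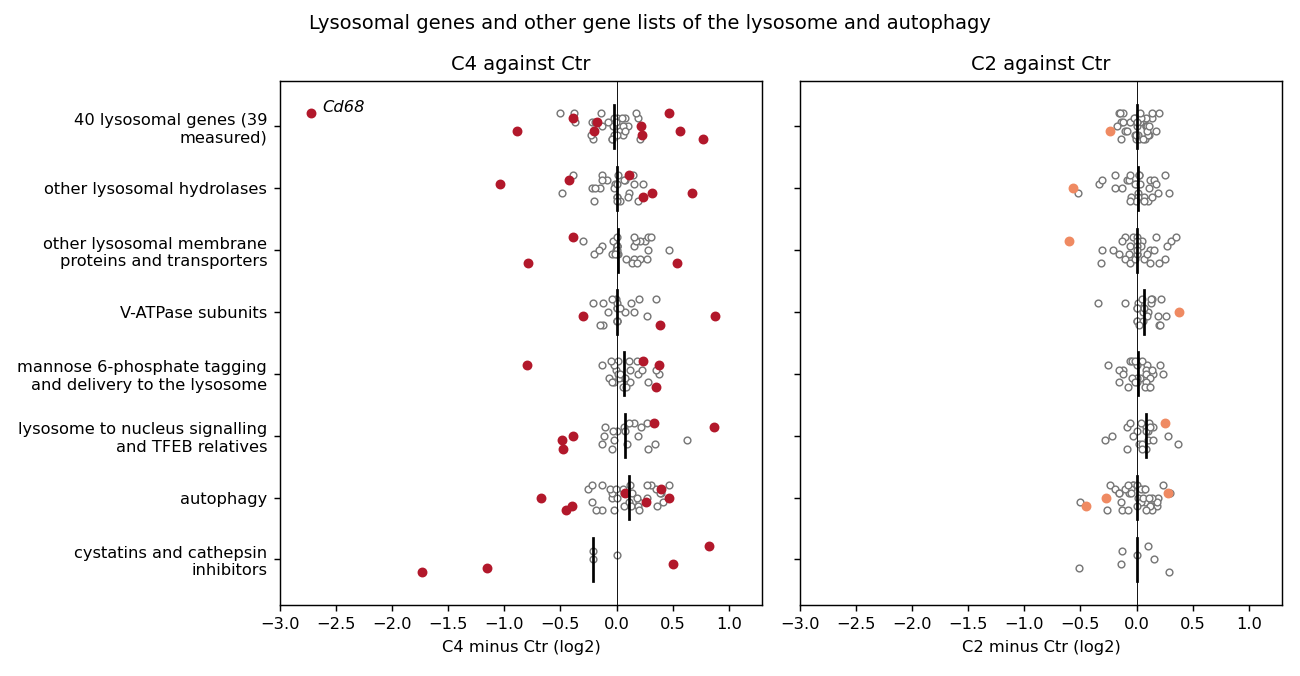
Difference from Ctr on the log2 scale (x axes) of each measured gene (points) in the lysosomal gene list and in 7 further lists (y axis), for C4 on the left and C2 on the right; filled points passed an adjusted p of 0.05 and black bars are list medians. Cd68 at -2.72 lies apart from every other gene plotted, the next lowest being Timp1 at -1.73 and Serpina3n at -1.15 in the list of inhibitors.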

How the data were processed

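RNA of aOBSC neurospheres was hybridised to Affymetrix Mouse Genome 430 2.0 arrays (9 arrays). The authors normalised the scans with GCRMA (version not given in the sources used here) and deposited log2 values, in which GCRMA has already pressed weak signals together near the lowest value, so that differences of dim genes are understated. The 64 controls among the 45101 probe sets were dropped. Of the rest, 34945 had 1 gene symbol in the platform table, and positions and promoters came from RefSeq GRCm38.p6.

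The members and lists were chosen with earlier results of these data known. One linear model with a mean per condition was fitted over all 9 arrays and 45037 probe sets (limma 3.58.1 with an intensity trend, R 4.3.3), with Benjamini-Hochberg adjustment in each comparison and a threshold of 0.05. Named were Cd68, every member called in any comparison, the 4 brightest uncalled members, up to 3 called genes per direction and list, and the neighbours of Cd68. On simulated data for C4 against Ctr with 45037 probe sets, 31 of 67 changes of 0.5 and 58 of 67 of 1.0 were recovered. All 66 of 2.0 were recovered too, and 12 calls were false. Only these probe sets, drawn from the brighter ones, were given a change, whereas the measured comparison called 2833. Recovery in dim probe sets, or with as many changes as in the measured data, was not tested. The 3 arrays per condition limit the precision.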

Additional observations from a re-analysis of the deposited data

How the results depend on the processing

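Cd68 kept its direction, its calls in C4 and its lack of a call in C2 in all 17 refits, from -2.81 to -2.65 in C4 against Ctr. For C4 against Ctr the 10 called members became 5 with a robust prior, 16 after dim probe sets were filtered out (36 members tested) and 1 at the study's threshold of a log2 difference of 1, and they numbered 6 to 11 when 1 array was left out, with 6 without C4 replicate 2, Ctr replicate 2 or Ctr replicate 3. For C2 against Ctr the 1 called member became 0 with a robust prior, 2 with probe sets of a gene averaged and 0 at the study's threshold, and 0 to 1 with 1 array left out. For C4 against C2 the 9 called members became 3 when only the arrays of both groups were fitted, 5 with a robust prior, 1 at the study's threshold and 5 to 8 with 1 array left out. With the replicate number as a block the 3 counts were 8, 0 and 7. Deviations of arrays of the same number correlated weakly at most (r of -0.0411 to 0.136), beside -0.122 to 0.107 for different numbers. Not every array correlated best with its own number. Correlations this weak, from 3 arrays per condition, cannot settle whether the numbers pair arrays. Averaging probe sets took away the call of Ctsa. Over all probe sets, calls in C4 against Ctr ranged from 1386 (robust prior) to 4697 (dim probe sets filtered out), beside 2833, in C2 against Ctr from 45 to 1825, beside 767, and in C4 against C2 from 1178 to 3908, beside 2363, with 312, 38 and 303 at the study's threshold. The cause of these shifts was not tested.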

Other observations

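Inhibitors of lysosomal proteases and related secreted inhibitors, which no comparison above describes, moved in both directions. Cst3, the gene of cystatin C, the secreted inhibitor of cathepsins, had 12.69, 12.69 and 12.72 in C4, an average of 11.98 ± 0.031 in C2 (SD, n = 3), and 11.86, 11.85 and 11.92 in Ctr. It rose by 0.82 in C4 compared with Ctr (SE 0.024, limma adjusted p = 3.77e-05) and by 0.72 compared with C2 (limma adjusted p = 3.87e-05). Timp1, an inhibitor of metalloproteinases, had 5.84, 5.37 and 5.36 in C4, 7.47, 7.48 and 7.65 in C2, and 7.27, 7.21 and 7.26 in Ctr, a fall of 1.73 (limma adjusted p = 9.44e-04). All C4 arrays of Timp1 lay below, and all C2 arrays above, those of Ctr. Serpina3n, an inhibitor of serine proteases, fell by 1.15 in C4 (limma adjusted p = 0.00122), and Serpinb6a rose by 0.50 at values close to the bottom of the scale (3.99, 4.01 and 4.31 in C4). Cstb, the gene of the intracellular cystatin B, had a difference of -0.21 that did not pass (limma adjusted p = 0.50), and of 7 measured genes in this list 2 rose and 2 fell. These 4 were 57.1% of a short list, beside 9.20% of all genes and 17.5% of those averaging over 4. The list was chosen with earlier results of these data known, so this share describes only the genes in it.

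Ctse and Litaf, of the wider lists, were called in C2 against Ctr and not in C4 against Ctr, and were picked after their values were seen. Ctse, the gene of the endosomal aspartic protease cathepsin E, had 7.56, 7.78 and 7.56 in C2 and 8.17, 8.34 and 8.09 in Ctr, a fall of 0.57 (limma adjusted p = 0.0373), beside 8.27, 8.17 and 8.11 in C4, which differed from C2 by 0.55 (limma adjusted p = 0.0175). Litaf, a gene of late endosome membranes, had 6.74, 6.81 and 7.07 in C2 and 7.53, 7.46 and 7.41 in Ctr, a fall of 0.60 (limma adjusted p = 0.0307), and its difference between C4 and C2 did not pass (0.29, limma adjusted p = 0.155).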
